A study of Mus musculus with 33 samples.

Results

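Embryoid bodies (EBs) are floating aggregates in which mouse embryonic stem cells leave pluripotency and start to differentiate. The measurements below describe what retinoic acid (RA) raised and lowered in EBs of Neil1-mutant cells, a line lacking a working copy of one of the DNA glycosylases that start base excision repair. The comparison was chosen by its labels, RA-treated against untreated EBs of the Neil1 clones, which gave 6 of the 33 libraries of the series. The series covers stem cells, EBs and RA-treated EBs of control and DNA repair mutant lines.

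The parent of all lines was the mouse embryonic stem cell line E14TG2a, and each had been transfected with a Cas9 plasmid. In the Neil1 lines a pair of guides was used to remove a stretch around an early exon, and the control clones had received the plasmid without guides. Neil1 clones #7, #9 and #11 each gave 1 library of EBs and 1 of EBs + RA. EBs were split on day 4 into a part that received 5 µM RA and a part that did not, and both were harvested on day 8. The 6 libraries of control clones #1, #4 and #7 and the 6 of Neil2-mutant clones #1, #11 and #14, a line without a sister glycosylase, were grown with the same times and dose and are used below only to show where the Neil1 response differed. A clone is 1 edited cell grown up, so that 3 clones stand for each genotype, and each library is a mixture of the cell types of many EBs. Fewer cells of a type and less RNA per cell cannot be told apart in such bulk libraries.

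RA is made from vitamin A by retinaldehyde dehydrogenases, carried in the cell by small binding proteins and broken down by CYP26 enzymes. It acts through nuclear receptors (RARs with RXR partners) that sit on paired copies of a short DNA motif and switch neighbouring genes on when RA arrives. In the embryo RA silences pluripotency genes, opens the Hox clusters from their front ends, gives hindbrain and spinal cord their position along the body axis and drives neural progenitors into neuronal differentiation. In cultured stem cells RA can also favour extraembryonic endoderm.

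Counts on genes ranged from 21758303 to 29133599 in the 6 libraries and from 23861038 to 48350904 in the 12 control and Neil2 libraries, and in the 6 the share of reads placed at more than 1 site, which the counting sets aside, ranged from 13.3% to 17.2%. Levels are given as CPM, counts scaled to a common library size after TMM scaling (a correction for differences in RNA composition), in the order clone #7, #9 and #11. CPM is not corrected for gene length, so that it compares libraries and not genes. Changes are log2 fold changes of EBs + RA over EBs with the SE of the fit (n = 3 clones per group), and p-values are those of edgeR's quasi-likelihood fit, adjusted over all genes tested by the Benjamini-Hochberg procedure. A gene was called, and is written of as raised or lowered, when its adjusted p was under 0.1 and its log2 fold change beyond 0.5 in either direction. Neil1 itself was at 6.14, 1.41 and 3.16 CPM in EBs and at 4.32, 2.15 and 2.90 CPM in EBs + RA, against means of 8.02 and 7.16 CPM in the controls. The Neil1 groups overlapped, and a count over the whole gene does not measure the loss of an exon. The EBs + RA library of clone #11 stood apart from the other clones: 407 of 11226 well-measured genes were over 2-fold above and 194 over 2-fold below the mean of the other clones (on the log2 scale of CPM + 1), against 26 and 82 for clone #7 and 33 and 101 for clone #9. Values that rest on that library are given with and without it.

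RA changed a large share of the transcripts measured in Neil1 mutant EBs. Of 15688 genes tested, 8377 were called (53.4%), of which 4427 were raised (28.2%) and 3950 lowered (25.2%), with a median log2 fold change of 0.03 over all genes. Every count of list members below is to be read against these shares. The filter on low counts, 10 counts in a library of median size (0.387 CPM) in at least 3 libraries, let 1080 genes through on their EBs + RA libraries alone, so that they were kept for their level after RA. Where these make up much of a list, the count among members that passed in all 3 EB libraries is given too, to be read against 25.3% raised of the 14311 genes tested that did so. Another 529 genes passed on their EB libraries alone, and 393 of them were lowered. Neither the fall of these nor the rise of the 1080 is support. Among lowered members below, they include 3 of 5 forebrain and midbrain, 3 of 9 streak and mesoderm and 2 of 3 neural tube domain genes. They also include 2 of 6 proneural and 2 of 7 endothelial genes. In 4996 genes (31.8%) every EBs + RA library was above every EB library, and in 5040 (32.1%) every one was below. Ranked among called genes with a mean of at least 2 log2 CPM and no overlap, the 10 largest rises included genes of the RA system itself and Hox genes, and the 10 largest falls included genes of the epiblast, the pluripotent tissue from which the embryo proper forms.

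The gene for the RA-degrading enzyme Cyp26b1 (chr6:84521938-84543740, minus strand, NCBIM37) had the largest rise of that ranking, from 0.406, 0.374 and 0.457 CPM in EBs to 237, 202 and 387 CPM in EBs + RA, a log2 fold change of 9.38 ± 0.36 (adjusted p = 2.2e-06). All EBs were close to no expression and all EBs + RA were high. Hoxa5, a homeobox gene of the middle of the HoxA cluster (chr6:52151753-52154586, minus strand), went from 0.203, 0.291 and 0.457 to 87.0, 93.6 and 73.0 CPM (8.01 ± 0.25). Slc4a9, an anion exchanger gene, went from 1.62, 0.999 and 1.10 to 126, 242 and 429 CPM (7.77 ± 0.57). Rarb, the RA receptor gene that is itself a classical RA target (chr14:17263356-17651381, minus strand), rose from 1.07, 0.582 and 0.572 to 67.8, 73.5 and 62.8 CPM (6.56 ± 0.25). In these 4 genes the groups did not overlap, as the ranking required, and clone #11 was highest after RA in Cyp26b1 and Slc4a9 and lowest in Hoxa5 and Rarb. Cyp26b1 and Hoxa5 did not reach the filter minimum of 0.387 CPM in every EB library. They passed through the EBs + RA libraries alone, so that the direction of their change is no support.

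Others among the 10 largest rises were Hoxb1 (5.88 ± 0.38), Stra8 (5.58 ± 0.31), Pmp22 (5.46 ± 0.32) and Il1r1 (5.19 ± 0.49). Stra8, a gene that RA induces before meiosis in germ cells, went from 14.4 ± 4.21 CPM (SD, n = 3) in EBs to 815, 777 and 457 CPM. Pmp22, a myelin protein gene also expressed in many epithelia, went from 3.09, 3.37 and 2.74 to 178, 148 and 78.0 CPM, with clone #11 lowest after RA. Il1r1, the receptor gene for interleukin 1, went from 1.01, 0.915 and 1.68 to 27.2, 30.7 and 73.9 CPM.

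**Figure D1:**
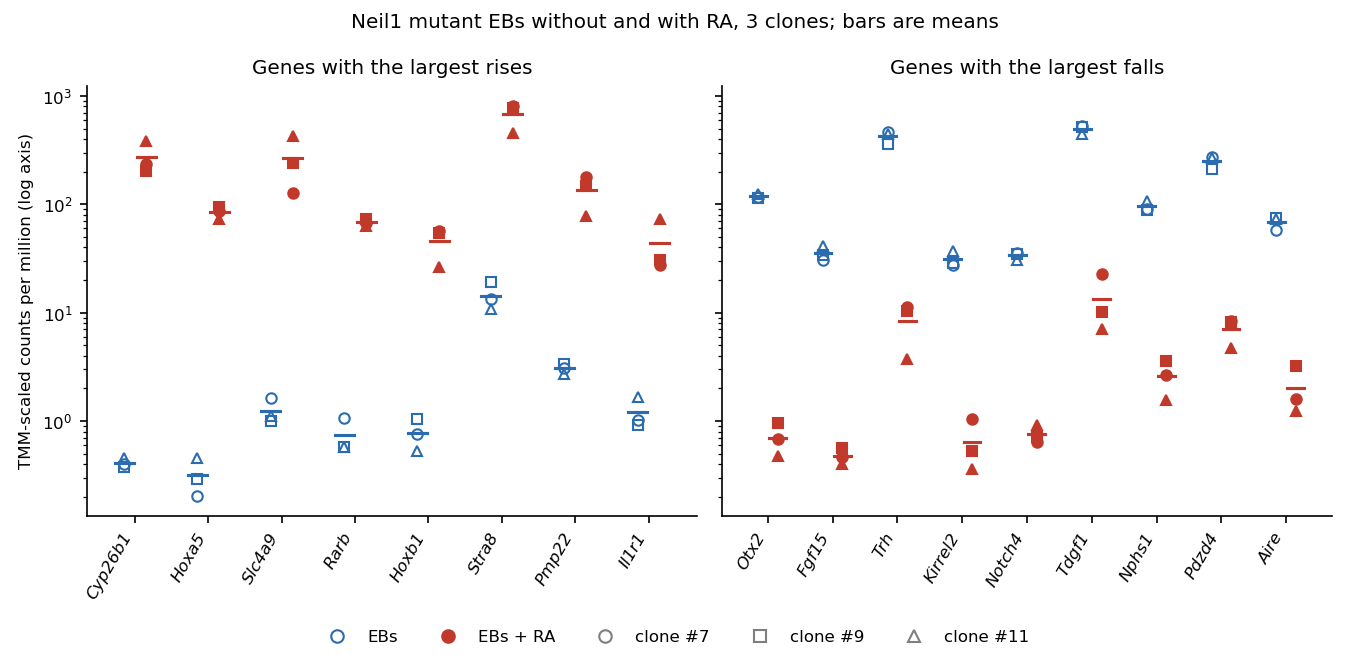
Levels of 8 of the 10 genes with the largest rises and 9 of the 10 with the largest falls of the ranking in Neil1 mutant EBs, as CPM on a log axis, with 1 point per library of clones #7, #9 and #11, open without RA and filled with RA, and bars at the means. The EB and EBs + RA points do not overlap in any of the genes, as the ranking required, and Cyp26b1 rose from at most 0.457 to at least 202 CPM. Cyp26b1 passed the filter on low counts through the EBs + RA libraries alone.

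The largest fall of that ranking was that of Otx2, a homeobox gene of the epiblast and later of forebrain and midbrain (chr14:49277354-49287319, minus strand). It was at 116, 114 and 126 CPM in EBs and at 0.678, 0.952 and 0.477 CPM after RA, a log2 fold change of -7.37 ± 0.22 (adjusted p = 2.1e-06). Fgf15, a fibroblast growth factor gene of the early brain, went from 30.9, 34.0 and 41.0 to 0.462, 0.564 and 0.398 CPM (-6.19 ± 0.23). Tdgf1, which encodes the Nodal co-receptor Cripto, went from 531, 513 and 448 to 22.9, 10.2 and 7.04 CPM (-5.20 ± 0.43). The groups did not overlap in these 3 genes, as the ranking required, and clone #11 had the lowest level of each after RA.

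Trh, the precursor gene of thyrotropin-releasing hormone, fell by 5.63 ± 0.40 on the log2 scale, Notch4, a Notch receptor gene, by 5.47 ± 0.21, Pdzd4 by 5.13 ± 0.24 and Aire, a regulator of self-antigen expression in the thymus, by 5.07 ± 0.33. Kirrel2 (-5.54 ± 0.35) and Nphs1 (-5.18 ± 0.28), which encode nephrin-family adhesion proteins, lie next to each other on chromosome 7 and fell together. Notch4 went from 35.4, 35.0 and 30.9 to 0.647, 0.706 and 0.914 CPM. By a stricter measure of on and off, 38 genes were under 1 CPM in all EBs and at or above 5 CPM in all EBs + RA, and 17 genes showed the opposite.

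Most genes that make, carry and destroy retinoids were raised. Of 22 listed genes of retinoid handling, 19 were tested, 13 were raised and 2 lowered, with a median log2 fold change of 2.43. Of the 14 that passed the filter in the EB libraries, 8 were raised. The levels of the list summed to 234, 296 and 205 CPM in EBs and to 2250, 2538 and 3311 CPM in EBs + RA. All 3 CYP26 genes, whose enzymes clear RA, were raised. Cyp26a1 went from 45.2, 82.7 and 31.5 to 1087, 1295 and 1808 CPM (4.73 ± 0.41) and Cyp26c1 from 0.355, 0.707 and 0.152 to at least 8.79 CPM in every clone (4.71 ± 0.46). The groups did not overlap in either gene, and for Cyp26a1 the clone with the lowest EB level had the highest level after RA.

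Dhrs3, a reductase that turns retinaldehyde back into retinol, went from 5.17, 5.91 and 5.07 to 132, 145 and 163 CPM (4.78 ± 0.16), with little spread among clones. Stra6, the uptake receptor for retinol bound to its plasma carrier, rose by 3.80 ± 0.27 on the log2 scale, and Rbp4, that carrier, by 3.36 ± 0.27. The binding protein gene Crabp2 (3.52 ± 0.37) was raised, with clone #11 lowest after RA, at 28.2 CPM against 81.8 and 68.7 CPM. Among synthesis genes, Rdh10 (2.72 ± 0.21) and Aldh1a1 (4.66 ± 0.41, from at most 0.374 to at least 5.05 CPM) were raised. Aldh1a2, the main RA-producing enzyme gene of the early embryo, went from 2.94, 2.33 and 1.60 to 4.22, 5.93 and 2.94 CPM (0.95 ± 0.34, adjusted p = 0.043), and this call was lost without clone #9 and without the untreated library of clone #11 (lowest 0.67). Rbp7 fell by 2.65 ± 0.34 on the log2 scale. Crabp1 was lowered near the limit (-0.65 ± 0.28, adjusted p = 0.077), a call that was lost without clone #7, #9 or #11, with -0.42 without the RA library of clone #11.

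Of 21 receptor and cofactor genes, 19 were tested, with 8 raised and 3 lowered and a median of 0.45. Among the receptors, Rarb was raised as given above, Rxra, a partner of all RARs, rose by 0.85 ± 0.12 and Rarg fell by 1.69 ± 0.19 on the log2 scale. The orphan receptor genes Nr2f1 (4.66 ± 0.47) and Nr2f2 (4.41 ± 0.34) were raised, Nr2f2 from 0.964, 1.41 and 2.71 to 33.5, 33.8 and 41.6 CPM. Nrip1, a corepressor that RA itself induces, went from 12.8, 13.9 and 12.6 to 141, 117 and 123 CPM (3.29 ± 0.13). Rara was at 43.0, 40.1 and 66.2 CPM and then at 61.9, 68.3 and 71.3 CPM, and was not called (0.45 ± 0.19, adjusted p = 0.081). It was called without clone #11 (0.65), without the EB library of clone #11 (0.69) and without the RA library of clone #7 (0.51), and came to 0.30 without clone #9.

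The classical receptor site is a direct repeat of a pentamer pair, GGTCA or GTTCA, and its letters were looked for in promoters. Both strands of RefSeq promoter windows (build GRCm38.p6, 250 bases before to 50 after a gene's start) were searched for 2 pentamers GGTCA or GTTCA with NNNNNN between them, the form called DR5, or with NNN between them, the form called DR2. Among all 32851 windows, 81 held a DR5 (0.247%) and 131 a DR2 (0.399%). Windows were found for 423 of the 599 list members and rule-named genes tested, and at least 4 of them held a DR5. These were the raised genes Rarb, Cyp26a1 (a clearance enzyme) and Bmp6 (a growth factor) and the placental gene Prl7d1, which was not called. The 4 may not be a full count over the 423, and members with a DR2 are not reported here. Of the 11874 genes tested that had a window, 22 held a DR5 (0.185%). The stretches of the raised members are shown because they carry the receptor motif beside genes that rose, with 15 bases to each side and the pentamers in capitals, on the strand of the gene.
Rarb: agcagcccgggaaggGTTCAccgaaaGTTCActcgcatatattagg
Cyp26a1: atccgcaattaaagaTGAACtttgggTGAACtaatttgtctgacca
Bmp6: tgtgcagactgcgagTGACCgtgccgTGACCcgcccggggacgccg
The Rarb stretch is chr14:16575498-16575543 (minus strand), and its repeat starts 52 bases before the gene's start. The Cyp26a1 stretch is chr19:37697761-37697806 (plus strand) and that of Bmp6 chr13:38345593-38345638 (plus strand). Their repeats lie on the opposite strand and so appear as TGAAC and TGACC. Bmp6 went from 3.96, 4.12 and 4.12 to 8.79, 10.5 and 23.5 CPM (1.83 ± 0.37). Among genes with a window, 6 of 3355 raised (0.179%) and 5 of 2946 lowered genes (0.17%) held a DR5. Of the 200 largest rises 2 did (1.0%). Only 75.7% of the genes tested had a window, so that these shares do not cover all of them, and they were not tested against each other. A match of letters is a description and was not tested as a binding site.

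Genes known from other embryonic cells as RA targets were raised with 1 exception among those called. Of 36 such genes, 34 were tested, 29 were raised and 1 lowered, with a median of 3.41, and of the 28 that passed the filter in the EB libraries 24 were raised. Besides those above, Zfp503 went from 0.406, 0.416 and 0.495 to 28.3, 26.5 and 20.0 CPM (5.82 ± 0.25) and its sister gene Zfp703 from 4.31, 4.83 and 4.73 to 128, 110 and 154 CPM (4.83 ± 0.18). Tgm2, a transglutaminase induced by RA in many cells, rose by 4.10 ± 0.34, Tshz1 by 4.19 ± 0.25, Foxa1 by 2.29 ± 0.25 and Gbx2, which marks the anterior hindbrain, by 2.28 ± 0.21 on the log2 scale. Lefty1, a Nodal antagonist, was the member lowered, from 238, 234 and 359 to 17.4, 22.1 and 10.9 CPM (-4.03 ± 0.29). Without clone #7 or its RA library 2 members were lowered.

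Hox genes, which assign position along the body axis, were raised in every case that could be tested. Of 39 Hox genes, 34 were tested and 34 raised, with a median log2 fold change of 4.28. Of these 34, 22 passed the filter through the EBs + RA libraries alone, so that their rise is no support, and the 12 that passed in the EB libraries were raised as well. In all 34 every EBs + RA library was above every EB library. Their levels summed to 15.6, 19.4 and 21.3 CPM in EBs and to 511, 524 and 394 CPM in EBs + RA. The 5 not tested were Hoxa11, Hoxc11, Hoxc12, Hoxd4 and Hoxd12, none of which reached 0.6 CPM in any library.

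By position in the clusters, all 11 tested genes of paralog groups 1 to 4, which are expressed furthest to the front, were raised (median 5.89), as were 11 of 11 of groups 5 to 8 (median 6.38) and 12 of 12 of groups 9 to 13 (median 2.27), which mark the rear of the body. In these sets 5, 2 and 5 genes had passed the filter in the EB libraries. Of the front genes, Hoxb1 went from 0.761, 1.04 and 0.534 to 56.3, 54.5 and 26.5 CPM. Hoxb4 went from 0.558, 1.29 and 1.75 to 28.7, 34.5 and 22.6 CPM (4.55 ± 0.36). Of the middle genes, Hoxb6 rose by 8.90 ± 0.46, Hoxb5 by 8.07 ± 0.39 and Hoxc5 by 6.82 ± 0.62 on the log2 scale, all from under 0.1 CPM in every EB library. Hoxc8 had 0 counts in all 3 EB libraries and 8.79, 7.65 and 3.98 CPM after RA, at least 52.2-fold higher against a floor of 3 counts per library.

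Of the rear genes, Hoxb13 went from 0.355, 0.499 and 0.229 to 22.4, 25.9 and 24.2 CPM (6.07 ± 0.28) and Hoxb9 from 2.03, 2.95 and 3.35 to 26.7, 26.9 and 19.2 CPM (3.13 ± 0.24). Most others stayed low, such as Hoxa10, which reached 2.25, 2.15 and 1.63 CPM (1.27 ± 0.29), and Hoxd10, which went from at most 0.267 to at most 0.917 CPM (1.72 ± 0.57). The Hoxd10 call was lost without clone #9 and without its RA library (lowest 1.30). By cluster, the medians were 4.72 for HoxA, 6.15 for HoxB, 4.14 for HoxC and 2.05 for HoxD. Clone #11 had the lowest summed Hox level after RA. Hoxa3 shares its reads with a second gene identifier, and its value is uncertain.

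**Figure D2:**
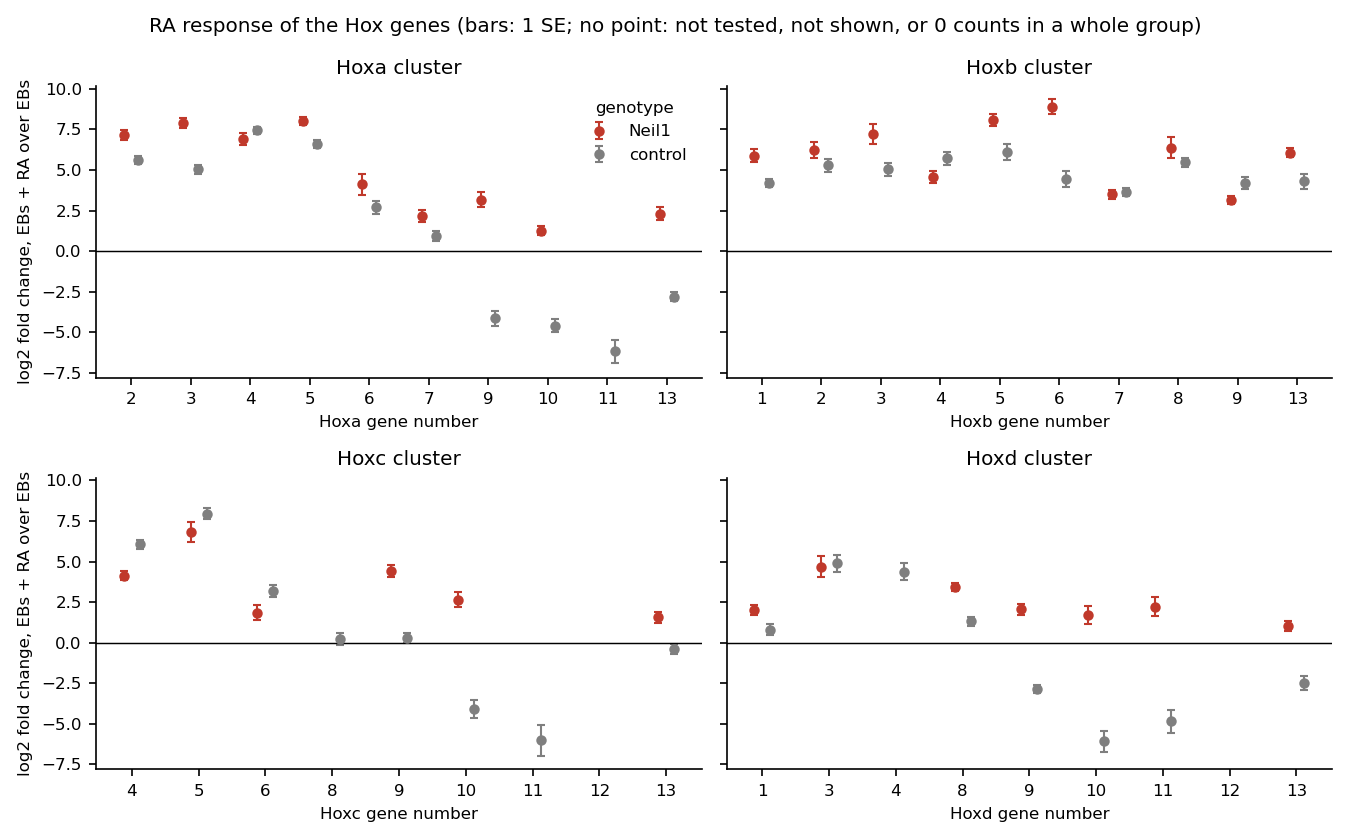
Log2 fold change of tested Hox genes under RA in Neil1 mutant EBs and in control EBs, by gene number in each of the 4 clusters, with bars of 1 SE and no point for genes not tested, not shown or at 0 counts in a whole group. Neil1 points lie above 0 throughout, with a median of 2.27 over the 12 genes of groups 9 to 13 tested in Neil1 EBs, where the control median was -3.47 over 14 genes. Of the 34 Hox genes tested in Neil1 EBs, 22 passed the filter through EBs + RA alone and could hardly lie below 0.

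Of 16 caudal, TALE and related homeobox genes, 14 were tested, 11 raised and 1 lowered, with a median of 1.34. Meis1, whose product binds DNA together with Hox proteins, went from 1.12, 2.16 and 2.17 to 52.1, 57.1 and 57.4 CPM (4.93 ± 0.25), and Meis2 rose by 1.59 ± 0.27 on the log2 scale. Cdx1, a direct RA target that patterns the trunk, went from 0.761, 0.749 and 0.686 to 13.7, 17.4 and 2.43 CPM (3.93 ± 0.68), with clone #11 far below the others. Cdx2 went from 1.72, 1.29 and 1.68 to 3.79, 3.63 and 7.67 CPM (1.70 ± 0.36). Evx1, a gene of the posterior primitive streak, was the member lowered, from 0.660, 0.707 and 0.991 CPM to 0, 0.0705 and 0 CPM, and 2 members were lowered without clone #7. Evx1 passed the filter through the EB libraries alone, so that its fall is no support.

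The pluripotency network was turned down. Of 30 naive and core pluripotency genes, all tested, 27 were lowered and 2 raised, with a median of -2.45, and their summed level went from 10070, 11010 and 9451 CPM to 2185, 2219 and 1486 CPM. Pou5f1 (Oct4) went from 760, 823 and 755 to 77.7, 69.0 and 29.9 CPM (-3.72 ± 0.33), Nanog from 583, 632 and 430 to 61.1, 58.0 and 25.2 CPM (-3.50 ± 0.33) and Sox2, which also serves neural progenitors, from 482, 579 and 463 to 43.2, 38.4 and 17.8 CPM (-3.93 ± 0.31). None of the 3 reached 0 after RA, and clone #11 was lowest in each. Fgf4 (-4.88 ± 0.18), Tcl1 (-4.83 ± 0.26) and Nr0b1 (-4.51 ± 0.35) fell furthest after Tdgf1. Dppa5a, a marker of pluripotent cells, went from 3170, 3646 and 2602 to 518, 576 and 184 CPM (-2.87 ± 0.40).

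The members raised were Lifr, the receptor gene for leukaemia inhibitory factor (1.80 ± 0.40, and 1.17 without the RA library of clone #11), and Klf4, which was near the limit (0.52 ± 0.24, adjusted p = 0.091). The Klf4 call was lost with the clone as a block (0.47, adjusted p = 0.066) and without clone #7, #9 or #11, with 0.18 without the RA library of clone #11. Genes of the later, formative or primed epiblast were lowered as well. Of 16 genes, 14 were tested, 13 lowered and 0 raised (1 raised without the RA library of clone #11), with a median of -3.64. Fgf5 went from 56.8, 42.7 and 23.4 to 0.678, 0.388 and 0.0398 CPM (-6.70 ± 0.61), Foxd3 from 27.6, 34.5 and 27.7 to 1.08, 1.38 and 1.11 CPM (-4.64 ± 0.21) and the de novo DNA methyltransferase gene Dnmt3b from 566, 544 and 562 to 90.2, 76.0 and 60.4 CPM (-2.87 ± 0.16). Of these, Fgf5 passed the filter through the EB libraries alone.

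Neural genes did not rise together. Of 24 neural progenitor genes, 21 were tested, 6 were raised (3 of the 18 that passed in the EB libraries) and 7 lowered, with a median of 0.14. Sox9, which marks neural stem cells and neural crest, went from 0.507, 0.208 and 0.229 to 9.96, 6.81 and 6.12 CPM (4.63 ± 0.40), Lhx2 rose by 2.92 ± 0.27 and Pax2 by 3.48 ± 0.63 on the log2 scale, the latter to at most 2.19 CPM. Pax6, a master regulator of neural tube and eye, was at 3.25, 2.70 and 7.85 CPM in EBs and at 6.91, 4.59 and 3.62 CPM after RA. The groups overlapped, with clone #11 highest before and lowest after RA, and the gene was not called (0.14 ± 0.42, adjusted p = 0.81). Without clone #11 it was called (0.96, adjusted p = 0.0063). The radial glial transporter gene Slc1a3 was lowered, from 18.2, 14.7 and 16.7 to 3.70, 4.59 and 1.63 CPM (-2.31 ± 0.34).

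Of 26 proneural and neurogenic genes, 11 were detected well enough to be tested, 4 were raised (2 of the 9 that passed in the EB libraries) and 6 lowered, with a median of -1.13. Their summed level went up all the same, from 139.7, 134 and 182 to 219, 217 and 273 CPM, most of it from Btg2, an inhibitor of proliferation, which rose from 69.3, 61.9 and 106 to 156, 151 and 180.1 CPM (1.05 ± 0.20). Neurod1 fell from 2.08, 2.04 and 5.91 to 1.08, 1.16 and 0.358 CPM (-1.92 ± 0.55, and -0.87 without clone #11), and the Notch ligand gene Dll1 fell from 7.71, 7.07 and 12.4 to 3.27, 4.09 and 1.23 CPM (-1.65 ± 0.42, and -1.01 without clone #11). Without clone #7 the number lowered was 3. Neurog1, Neurog2 and Nhlh1 were at or below 0.353 CPM in all 6 libraries and were not tested.

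Among pan-neuronal genes more were lowered than raised. Of 30, 25 were tested, 4 were raised and 13 lowered, with a median of -0.61, and their summed level went from 420, 412 and 477 CPM to 152, 145 and 127 CPM. Tubb3, the neuronal tubulin, went from 56.4, 69.3 and 59.4 to 13.9, 11.5 and 26.2 CPM (-1.83 ± 0.29), Ina, a neurofilament gene, from 72.1, 60.7 and 71.9 to 3.61, 4.02 and 1.15 CPM (-4.52 ± 0.38) and the microtubule regulator Stmn2 from 66.8, 82.4 and 116 to 4.38, 4.48 and 2.11 CPM (-4.57 ± 0.32). In these genes every library after RA was below every library before it. Tagln3 (-3.12 ± 0.28), Crmp1 (-2.63 ± 0.31) and Nefl (-2.32 ± 0.27) were lowered as well. The members raised included Stmn4 (3.33 ± 0.63) and Syp, a synaptic vesicle protein (1.29 ± 0.30), and without clone #7 or clone #9 only 2 were raised. Dcx, a marker of young neurons, was at or below 0.555 CPM in all 6 libraries.

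Genes of regional identity were mostly raised for the hindbrain, where RA is known to act, and mixed for forebrain and midbrain. Of 17 hindbrain genes, 14 were tested, 12 raised and 1 lowered, with a median of 4.04 (5 raised of the 7 that passed the filter in the EB libraries), and 7 of the raised were Hox genes described above. Of the others, Gbx1 rose by 2.45 ± 0.51 and Irx3 by 3.39 ± 0.70 on the log2 scale, Irx3 with clone #11 at 44.1 CPM against 11.7 and 8.54 CPM. Epha4 was lowered (-1.44 ± 0.15). Of 31 forebrain and midbrain genes, 18 were tested, 9 raised (3 of the 12 that passed in the EB libraries) and 5 lowered, with a median of 0.67, and without clone #9 the number raised was 5. Otx2, Fgf8 (-5.95 ± 0.47), Fgf17 (-3.90 ± 0.40) and Pax8 (-2.13 ± 0.53) were among those lowered, and Dlx2 (2.44 ± 0.42) among those raised, to at most 1.41 CPM. Of 43 genes of neural tube domains and neuron classes, 28 were tested, 15 raised (9 of the 19 that passed in the EB libraries) and 3 lowered, with a median of 1.05. Msx1 (1.41 ± 0.25) and Msx2 (1.77 ± 0.24), which mark the dorsal edge, were raised, as was Gata2 (2.95 ± 0.32), also a trophoblast gene.

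Neural crest, the migratory cell population that forms at the edge of the neural plate, was covered by 53 genes. Of these 39 were tested, 22 raised (13 of the 30 that passed in the EB libraries) and 8 lowered, with a median of 0.79, and without clone #7 the number raised was 14. Snai1, a trigger of epithelial to mesenchymal transition, went from 9.49, 8.99 and 11.3 to 22.4, 30.9 and 77.3 CPM (2.15 ± 0.45, and 1.43 without the RA library of clone #11). Sox8 went from 0.406, 0.582 and 0.648 to 5.52, 5.64 and 4.89 CPM (3.28 ± 0.28), and Ednrb, a receptor of migrating crest, from 0.203, 0.250 and 0.457 to 2.65, 1.66 and 3.50 CPM (3.06 ± 0.44). Nrp1 (2.95 ± 0.33) and Id3 (2.14 ± 0.14) were raised. Sox10, which marks crest cells after their delamination, went from 0.558, 0.458 and 0.762 to 1.17, 1.94 and 0.835 CPM (1.15 ± 0.41, adjusted p = 0.042), a call that was lost without clone #7 or clone #9, with 0.60 without clone #9. Foxd3, Mycn (-2.54 ± 0.12), Ngfr (-1.94 ± 0.27) and Erbb3 (-1.26 ± 0.33) were lowered.

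Mesoderm genes moved in both directions. Of 32 primitive streak and mesoderm genes, 24 were tested, 10 raised (4 of the 18 that passed in the EB libraries) and 9 lowered, with a median of 0.17. Among those lowered were genes of the streak itself. T (Brachyury) went from 6.24, 3.08 and 4.65 to 0.401, 0.317 and 0.119 CPM (-3.99 ± 0.45), Eomes from 37.3, 36.4 and 18.5 to 8.76, 6.98 and 5.41 CPM (-2.11 ± 0.30) and Mixl1 from 3.60, 3.66 and 1.37 to 0.987, 0.670 and 0.636 CPM (-1.88 ± 0.43). Of these, T passed the filter through the EB libraries alone, so that its fall is no support. Among those raised were 4 forkhead and homeobox genes of paraxial and lateral mesoderm. Foxc2 went from 0.152, 0.0416 and 0.114 to 13.1, 11.5 and 12.3 CPM (6.88 ± 0.35), Foxc1 rose by 3.45 ± 0.33, Meox1 by 2.76 ± 0.34 and Foxf1a by 2.79 ± 0.46 on the log2 scale. Of the 10 raised, 5 passed the filter through the EBs + RA libraries alone, Foxc2 among them, and their rise is no support.

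Of 32 cardiac and muscle genes, 24 were tested, 12 raised and 4 lowered (1 without clone #9), with a median of 1.10. Of the 16 that passed in the EB libraries, 7 were raised. Gata6 went from 13.7, 18.1 and 27.5 to 75.2, 101 and 203 CPM (2.69 ± 0.42) and Gata4 from 42.8, 55.9 and 60.3 to 98.5, 155 and 286 CPM (1.78 ± 0.37), and both are endoderm genes as well. Acta2 (3.52 ± 0.56) and Acta1 (3.04 ± 0.41), actins of smooth and skeletal muscle, were raised to at most 7.71 and 9.77 CPM, while the sarcomere gene Ttn fell by 2.20 ± 0.40 on the log2 scale (1.44 without clone #11). Of 26 endothelial genes, 21 were tested, 7 raised and 7 lowered (11 raised with all 18 EB libraries in 1 fit), with a median of 0.22. Pecam1 (-2.31 ± 0.23), which stem cells also express, Tek (-2.08 ± 0.24) and Robo4 (-3.69 ± 0.47) were lowered and Flt1 was raised (1.89 ± 0.41, and 1.18 without clone #11). Cdh5, the endothelial cadherin, was at 11.9, 5.04 and 105 CPM after RA, from 3.96, 2.08 and 19.4 CPM, and was called only with the clone as a block (1.86, adjusted p = 0.00073). It was higher after RA within each clone, and clone #11 stood far above the others in both groups.

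Most genes of parietal endoderm were raised, several of them from already high levels. Of 22 genes of parietal endoderm, the outer yolk sac layer that secretes a thick basement membrane, all 22 were tested, 16 raised and 0 lowered, with a median of 1.76. Their summed level went from 3844, 4237 and 4877 CPM to 7746, 10140 and 31430 CPM, with the RA library of clone #11 far above those of the other clones. Col4a1, a chain of type IV collagen, went from 546, 604 and 674 to 1454, 2066 and 6809 CPM (2.52 ± 0.58), Lama1, a laminin chain, from 236, 283 and 388 to 574, 895 and 3456 CPM (2.47 ± 0.69) and Sparc, a matrix protein, from 663, 794 and 1053 to 1516, 2020 and 5893 CPM (1.93 ± 0.52). Without the RA library of clone #11 these changes were 1.54, 1.29 and 1.09, and the list held 14 raised and 2 lowered genes with a median of 1.18.

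Within that list, Plat (2.85 ± 0.50), which encodes tissue plasminogen activator, Srgn (2.20 ± 0.31) and the parathyroid hormone receptor gene Pth1r (1.68 ± 0.27) were raised in all clones, Pth1r from 40.6, 49.6 and 47.8 to 96.7, 126 and 214 CPM. Lamc1 was at 578, 687 and 2463 CPM after RA against 435, 424 and 520 CPM before (1.46 ± 0.55), a call that was lost without the RA library of clone #11 (0.47) and without the EB library of clone #7 or #9. The transcription factor gene Sox7 went from 8.32, 11.6 and 12.5 to at least 22.8 CPM in every clone, highest in clone #11 (1.66 ± 0.31).

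Visceral and definitive endoderm genes moved in both directions. Of 38 genes, 34 were tested, 17 raised and 8 lowered, with a median of 0.61. Regulators were raised, such as Foxa2 from 8.83, 12.9 and 10.4 to 29.5, 33.9 and 76.7 CPM (2.14 ± 0.37) and Sox17 (1.06 ± 0.33, and 0.59 without the RA library of clone #11). So were the fibrinogen genes Fgb (3.19 ± 0.21) and Fga (3.95 ± 0.55) and the endocytic receptor gene Cubn (1.41 ± 0.28). Several products of mature visceral endoderm were lowered, Apoe from 613, 748 and 634 to 302, 443 and 352 CPM (-0.85 ± 0.16), Apob by 1.52 ± 0.27 and Spink3 by 1.78 ± 0.31 on the log2 scale.

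Of 25 trophoblast and placental genes, all were tested, 15 raised (14 of the 20 that passed in the EB libraries) and 1 lowered, with a median of 2.08. Summed levels went from 2029, 1987 and 2475 CPM to 9864, 6771 and 13790 CPM. The keratin genes Krt8 (from 262, 271 and 438 to 1287, 939 and 2414 CPM, 2.27 ± 0.37) and Krt18 (2.45 ± 0.25), shared with other simple epithelia, and the imprinted gene Peg10 (from 1240, 1180 and 1390 to 6373, 4260 and 7818 CPM, 2.29 ± 0.21) made up most of that sum. Elf5, which maintains trophoblast stem cells, went from 1.47, 1.96 and 1.56 to 12.8, 7.02 and 28.1 CPM (3.27 ± 0.50), and Esx1 (2.62 ± 0.23) and Gata3 (2.08 ± 0.29) were raised. The 4 genes of the placental prolactin family were not called, and clone #11 was highest after RA in each. With the clone as a block, which compares EBs + RA with EBs within each clone, all 4 were called raised (1.16 to 1.77). They share reads among near-identical copies, so that their single values are uncertain. In that fit 23 members were raised and 1 lowered, and without clone #11 2 were lowered.

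**Figure D3:**
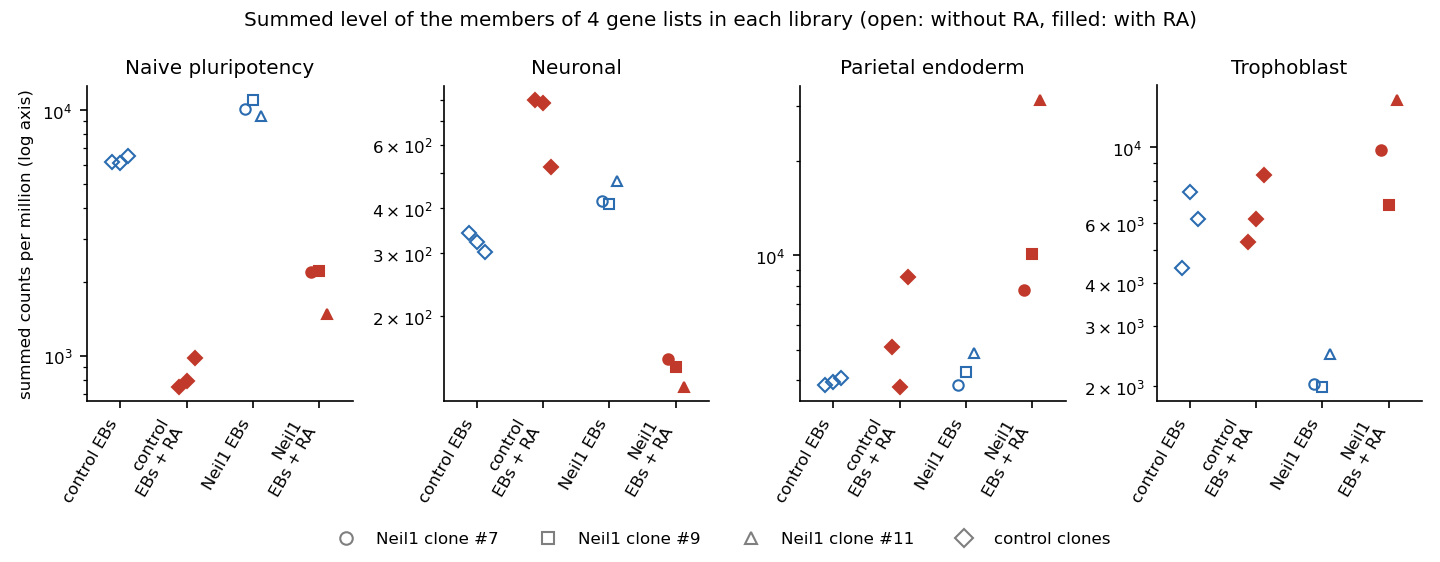
Summed CPM of the members of 4 gene lists on log axes, with 1 point per library, open without RA and filled with RA, for control clones (diamonds) and Neil1 clones #7 (circle), #9 (square) and #11 (triangle). The parietal endoderm sum of clone #11 after RA, 31430 CPM, lies far above those of clones #7 and #9, at 7746 and 10140 CPM, while the pluripotency sums of all 3 clones fell to at most 2219 CPM.

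Germ cell and meiosis genes showed no common direction, with 12 of 34 tested genes raised and 8 lowered of 39 listed, and a median of 0.01. Besides Stra8, Rec8, a meiotic cohesin, went from 9.59, 10.9 and 11.2 to 136, 183 and 117 CPM (3.79 ± 0.19) and Sycp2, of the synaptonemal complex, rose by 1.79 ± 0.21, Taf7l by 1.42 ± 0.24 and Dazl by 0.99 ± 0.22 on the log2 scale. Dppa3 (-3.17 ± 0.35), Prdm1 (-1.95 ± 0.23) and Mael (-1.15 ± 0.25) were lowered.

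Signalling genes moved in both directions. Of 43 Wnt genes, 32 were tested, 15 raised and 10 lowered, with a median of 0.45. Ligand genes were raised from low levels, Wnt5a from 1.62, 1.58 and 2.52 to 7.12, 7.72 and 16.1 CPM (2.44 ± 0.38), Wnt4 from 5.63, 5.28 and 6.29 to 23.9, 22.5 and 51.0 CPM (2.51 ± 0.33) and Wnt9a by 2.28 ± 0.21 on the log2 scale, while Wnt8a fell by 1.91 ± 0.25. The secreted antagonist genes Sfrp5 (3.65 ± 0.26), Dkk3 (3.28 ± 0.27) and Frzb (2.78 ± 0.38) were raised and Sfrp1 (-1.57 ± 0.17) and Sfrp2 (-2.60 ± 0.28) lowered. The mediators Lef1 (-3.57 ± 0.34) and Tcf7 (-1.28 ± 0.19) and the feedback gene Notum (-3.99 ± 0.37) were lowered.

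Of 30 Nodal and BMP genes, 25 were tested, 10 raised and 10 lowered, with a median of 0.09. On the Nodal side, Nodal went from 125, 116 and 154 to 28.6, 28.7 and 16.1 CPM (-2.41 ± 0.23), and its co-receptor gene Tdgf1, its antagonists Lefty1 and Lefty2 (-3.59 ± 0.54), its relative Gdf3 (-3.61 ± 0.25) and its partner Foxh1 (-2.14 ± 0.30) were lowered. On the BMP side, the target genes Id1 (1.99 ± 0.16), Id2 (1.65 ± 0.16) and Id3 were raised, Id1 from 28.5, 39.5 and 35.7 to 117, 143 and 149 CPM. Among ligands, Bmp2 went from 2.74, 3.87 and 5.30 to 7.09, 7.09 and 16.8 CPM (1.39 ± 0.40, and 0.84 without the RA library of clone #11), Bmp6 and Bmp7 (0.82 ± 0.20) were raised and Bmp4 was lowered, from 8.67, 10.6 and 9.83 to 2.07, 2.22 and 1.31 CPM (-2.36 ± 0.26).

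Of 42 Hedgehog, Notch and FGF genes, 41 were tested, 9 raised (5 without clone #9) and 21 lowered, with a median of -0.64. Grouped after their values were seen, 5 of the 8 FGF ligand genes listed were lowered, Fgf4, Fgf5, Fgf8, Fgf15 and Fgf17, and 3 were not called. The 6 listed feedback genes that FGF signalling is known to maintain were lowered, among them Spry4 from 33.1, 26.3 and 29.6 to 1.33, 1.52 and 0.755 CPM (-4.60 ± 0.27), Etv5 from 557, 499 and 472 to 26.2, 25.4 and 14.8 CPM (-4.51 ± 0.23), Etv4 (-2.71 ± 0.28), Spry2 (-1.93 ± 0.16) and Dusp6 (-1.81 ± 0.24). Hedgehog genes moved in both directions. Among those lowered were Ptch1 from 61.6, 41.8 and 73.2 to 23.9, 17.1 and 15.4 CPM (-1.64 ± 0.24), Gli2 by 2.32 ± 0.27 and Gli1 by 1.30 ± 0.34 on the log2 scale (0.82 without the EB library of clone #11), while 2 ligand genes were raised, Ihh (1.91 ± 0.30) among them. Of the Notch genes, Hes1 (0.71 ± 0.15) and Hey2 (1.93 ± 0.36) were raised and Dll1, Lfng (-1.50 ± 0.35) and Hey1 (-1.43 ± 0.38) lowered.

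Targets of the tumour suppressor p53, a responder to DNA damage, moved in both directions. Of 40 genes, all tested, 14 were raised (9 without clone #7) and 8 lowered, with a median of 0.29. Trp53 itself fell from 447, 432 and 496 to 133, 154 and 97.6 CPM (-1.83 ± 0.17) and Ccnd1 from 75.8, 64.0 and 103 to 5.55, 4.76 and 4.89 CPM (-3.99 ± 0.21). Plk3 (1.71 ± 0.20), Phlda3 (1.09 ± 0.16) and Ddb2 (1.07 ± 0.17) were raised, whereas Mdm2 was at 228, 207 and 295 CPM and then at 362, 319 and 327 CPM (0.48 ± 0.15, adjusted p = 0.024) and stayed under the fold limit. It passed that limit and was called without clone #11 (0.65), without the EB library of clone #11 (0.62) and without the RA library of clone #9 (0.52). Of 26 genes of intrinsic cell death, 25 were tested, 9 raised (4 without clone #7) and 6 lowered, with a median of 0.17. The survival gene Bcl2l1 (0.92 ± 0.14) and the death promoter Bad (0.85 ± 0.17) were both raised, Bok (-1.69 ± 0.21) and Bnip3 (-1.01 ± 0.15) were lowered, and Bax, at 304, 319 and 381 CPM and then at 222, 257 and 249 CPM, changed by less than the fold limit (-0.45 ± 0.13, and -0.53, called, without clone #9 or the EB library of clone #7).

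**Figure D4:**
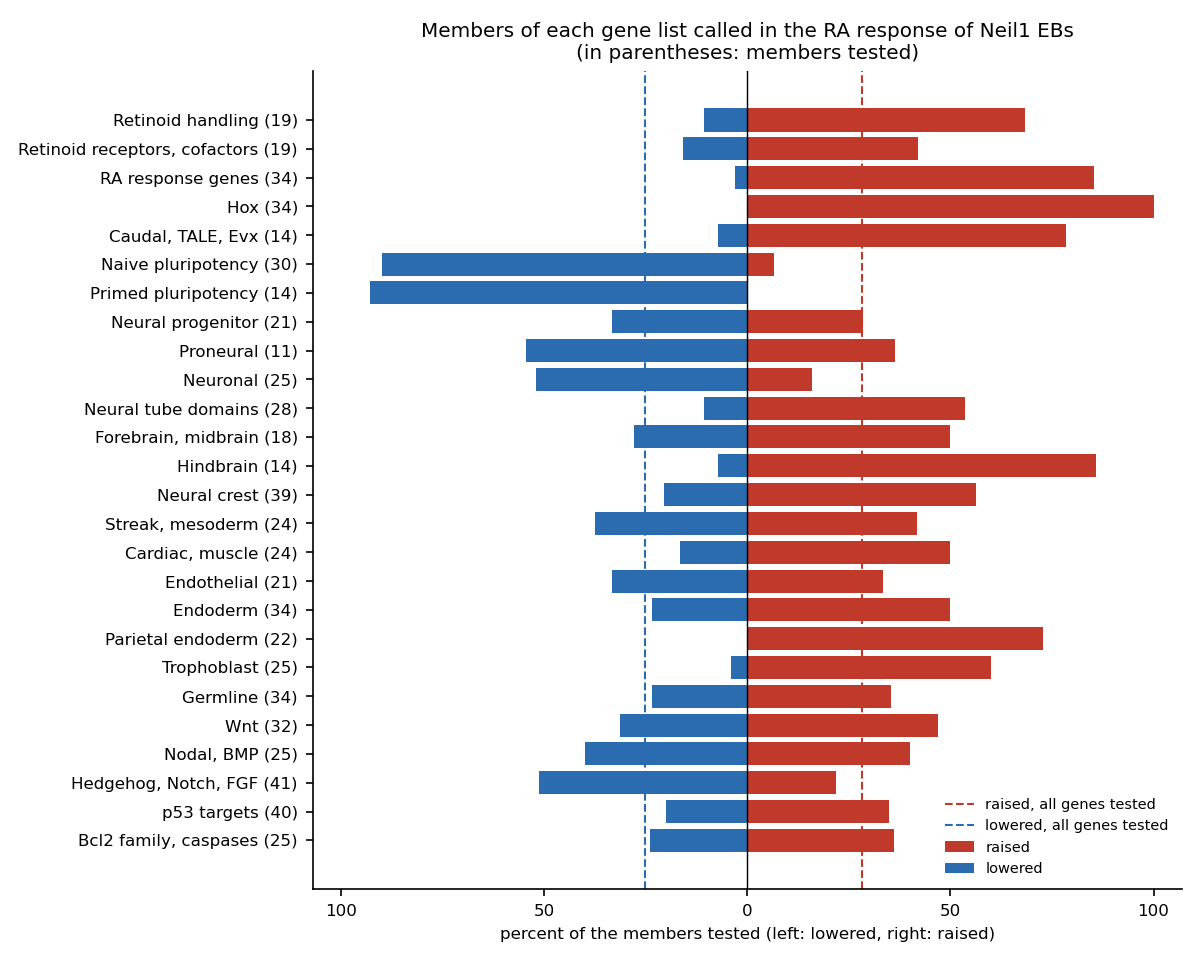
Share of the tested members of each gene list that were raised or lowered by RA in Neil1 mutant EBs, with the shares over all genes tested, 28.2% raised and 25.2% lowered, as reference lines. Hox, RA target, hindbrain, caudal and TALE, parietal endoderm, retinoid handling and trophoblast genes lie far to the raised side and pluripotency genes far to the lowered side. Other lists lie nearly as far to the raised side as trophoblast, such as neural crest (22 of 39) and neural tube domains (15 of 28). Bars include members that passed the filter through EBs + RA alone, 22 of 34 Hox, 7 of 14 hindbrain and 5 of 19 retinoid handling genes, whose rise is no support.

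The control clones show which of these changes RA also made in EBs without the mutation. RA raised 3717 of 15919 genes (23.3%) and lowered 3302 (20.7%) in control EBs. Of the 15236 genes tested in both, 2125 were raised in both, which is 50.1% of those raised in Neil1 and 64.0% of those raised in control EBs, and 2025 were lowered in both, 52.5% of those lowered in Neil1 and 63.2% of those lowered in control EBs. There were 210 genes raised in Neil1 but lowered in control EBs and 189 with the opposite pattern. The difference of the RA responses, Neil1 minus control, was tested as an interaction of RA and genotype and called for 4946 of 16706 genes (29.6%), 2763 above 0 (16.5%) and 2183 below 0 (13.1%). The control fit and this test used the same kind of filter on low counts. A gene that passed it through 1 group alone could hardly be called in more than 1 direction. How many list members passed in that way was not counted for these fits. Without 1 control clone the count fell to 2578 (without control clone #4) and 2843 (without control clone #1).

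Genes of the RA system gave calls in both directions and many without a call. The difference was not called for Rarb (-0.74, adjusted p = 0.15), Dhrs3 (0.04), Stra8 (-0.51), Stra6 (-0.45) or Meis1 (-0.50). It was called above 0 for Cyp26a1, which rose from a mean of 105 to 648 CPM in control EBs (2.65 against 4.73 in Neil1 EBs), and below 0 for Aldh1a2 (4.50 to 91.4 CPM in control EBs, difference -3.35) and Crabp1 (20.0 to 205 CPM, difference -3.98), which was at 4.66, 5.54 and 2.78 CPM in Neil1 EBs + RA. Of the naive pluripotency genes, 28 of 30 were lowered in control EBs, and 14 differences lay above 0 and 2 below, as for Klf2 (-3.37 in control against -2.28 in Neil1 EBs). Nanog fell to a mean of 16.2 CPM in control EBs.

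Most rear Hox genes rose in Neil1 EBs and fell in control EBs. Of 14 tested genes of groups 9 to 13, 10 were lowered and 2 raised in control EBs, with a median of -3.47. The 2 raised outweighed the others in the summed level, which went from 106, 90.1 and 46.3 to 172, 152 and 108 CPM in control EBs, with Hoxb9 alone at 154, 134 and 79.7 CPM after RA. In 13 of 14 the difference was called above 0, and 8 genes were raised in Neil1 and lowered in control EBs. Of the 12 tested in Neil1 EBs, 7 passed the filter through EBs + RA alone, Hoxa9 among them, so that their rise there is no support. Members near 0 in every group but untreated control EBs can have passed the other filters through that group alone. The fall of such members in control EBs, and their difference above 0, is no support. Hoxa9 had a mean of 11.7 CPM in control EBs and 0.654 CPM after RA (-4.13), while Neil1 EBs went from 0.0507, 0.166 and 0.191 to 1.02, 1.55 and 1.35 CPM (3.18 ± 0.47, difference 7.35). Levels differed already without RA, since control EBs held a summed Hox level of 85.0 to 180.0 CPM, above all 3 Neil1 EBs, and 1129 to 1737 CPM after RA, again above all 3. Cdx2 followed the same pattern, with means of 70.7 and 2.53 CPM in control EBs and a difference of 6.51.

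Neural genes differed the other way. In control EBs 17 of 19 tested proneural genes were raised and 0 lowered (median 3.96), and 23 of 30 neuronal genes raised and 5 lowered (median 2.00). Members near 0 in control EBs, such as Neurog2 and Dcx below, can have passed the filter through control EBs + RA alone. The rise of such members, and their difference below 0, is no support. The difference was called below 0 for 15 of 20 proneural, 24 of 30 neuronal and 15 of 23 neural progenitor genes. Pax6 had means of 0.916 and 101 CPM in control EBs, and its difference of -6.66 ± 0.70 (adjusted p = 0.00011) was the largest below 0 by the rule for named genes. Tubb3 had means of 26.9 and 99.0 CPM in control EBs (difference -3.69), Dcx 0.329 and 28.6 CPM, and Neurog2 0.0125 and 10.8 CPM. Sfrp1 (22.8 and 179 CPM, difference -4.52 ± 0.28), Slc1a3 (17.5 and 92.6 CPM, -4.68 ± 0.37), Wt1 (3.74 and 121 CPM, -4.71 ± 0.41) and Crmp1 (8.07 and 33.1 CPM, -4.64 ± 0.38) were raised in control EBs. Wt1, a regulator of kidney and mesothelium, was at 6.64, 6.28 and 10.8 CPM in Neil1 EBs and at 13.5, 9.81 and 5.45 CPM after RA (0.28, not called, and 0.85 without clone #11, called).

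The largest differences above 0 were those of Pmp22, whose mean went from 178 to 88.7 CPM in control EBs (6.50 ± 0.41), Hand1 (6.04 ± 1.06), Wnt5a (84.8 to 13.3 CPM, 5.13 ± 0.54), Runx1 (25.3 to 5.05 CPM, 4.24 ± 0.50) and Bmp2 (28.8 to 4.34 CPM, 4.14 ± 0.49). All 5 had higher means in untreated control EBs than in untreated Neil1 EBs, so that the responses started from unlike levels. Hand1, a factor of trophoblast and lateral mesoderm, was at 6.65, 6.66 and 12.8 CPM in Neil1 EBs and at 11.8, 8.01 and 89.7 CPM after RA. Its rise in the Neil1 clones was not called (2.08 ± 0.95, adjusted p = 0.10), came to 0.19 without the RA library of clone #11 and was called with the clone as a block (1.35, adjusted p = 0.0425). Runx1, a blood and mesoderm regulator, went from 2.33, 3.99 and 2.44 to 6.97, 10.5 and 14.9 CPM in Neil1 EBs. Parietal endoderm genes had 10 differences above 0 and 0 below, and trophoblast genes 12 and 0. This was not particular to them. Visceral and definitive endoderm genes had 14 and 0, germ cell genes 14 and 0, Nodal and BMP genes 14 and 1, and streak and mesoderm genes 17 and 3. The summed parietal level of control EBs was 3851 to 4064 CPM and 3800 to 8518 CPM after RA.

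**Figure D5:**
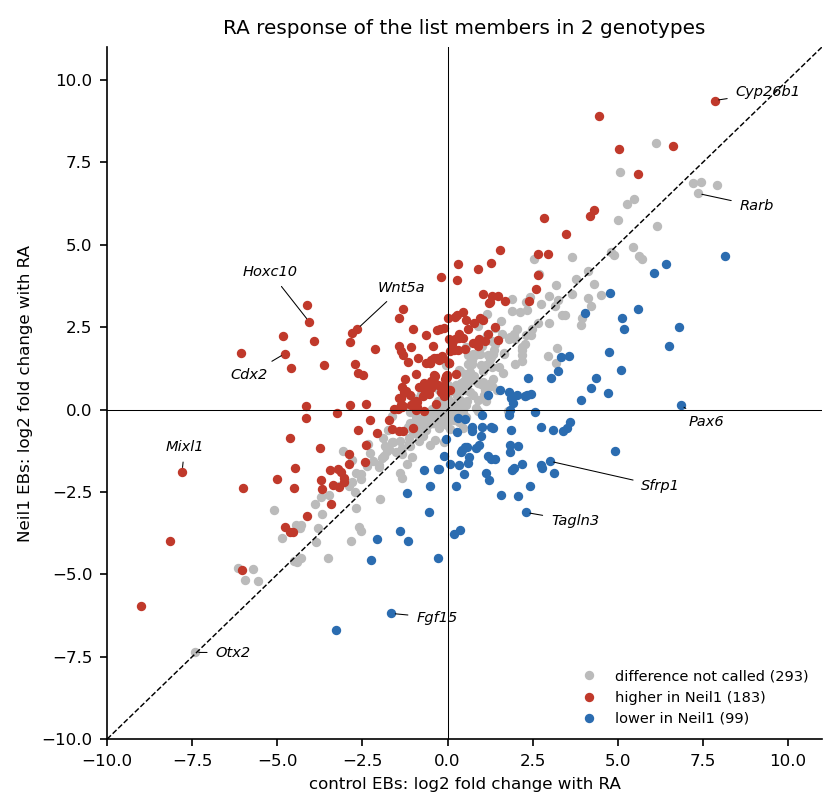
Log2 fold change under RA in Neil1 mutant EBs against that in control EBs for list members tested in both, coloured by whether the difference was called, with a dashed line of equal change. Of 575 members, 183 were called above 0, such as Cdx2 and Wnt5a, 99 below 0, such as Pax6 and Tagln3, and 293 were not called.

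No gene's RA response was called different between Neil1 and Neil2 EBs. The difference was called for 0 of 16517 genes (0.0%) by edgeR, with a lowest adjusted p of 0.651 and 1142 genes at an unadjusted p below 0.05, and DESeq2 called 2. A difference that misses the threshold does not show that the responses were the same, and the comparison with the control made 4946 calls with as many libraries. Of the 15466 genes tested in both mutants, 2771 were raised in both, 63.8% of those raised in Neil1 and 84.2% of those raised in Neil2 EBs, 2704 were lowered in both, 69.2% and 82.5% of the lowered genes, and 5 had opposite calls. The differences from control and from Neil2 share the Neil1 libraries. RA raised 3401 of 15876 genes (21.4%) and lowered 3331 (21.0%) in Neil2 EBs, where 33 of 34 tested Hox genes were raised and 0 lowered, and of the neuronal genes 3 were raised and 13 lowered. Side by side, the log2 changes in Neil1 and Neil2 EBs were 9.38 and 8.36 for Cyp26b1, 6.56 and 6.24 for Rarb, -7.37 and -6.99 for Otx2, 3.18 and 2.91 for Hoxa9 and -1.83 and -2.01 for Tubb3. Of the 22 parietal endoderm genes, 7 were raised and 2 lowered in Neil2 EBs.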

How the data were processed

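RNA of the 6 Neil1 libraries, and of 12 control and Neil2 libraries, was sequenced as unstranded polyA cDNA. The authors aligned reads to NCBIM37 with TopHat2 2.0.9 and Bowtie2 2.1.0 and counted them per gene with HTSeq 0.5.4, and the deposited values are raw counts. HTSeq's tallies of reads on no gene, on several genes or at several sites, together 23.5% to 27.8% of reads, were left out. Of 37991 identifiers 37205 had a name. Counts were fitted by edgeR 4.0.16 (R 4.3.3, filterByExpr, TMM, robust quasi-likelihood), per genotype and, for differences between genotypes, with an interaction term. Scripts were tested on simulated data. The 3 clones are separate edited lines, and replicates differed by more than counting noise. Per the labels, EBs of a clone were split on day 4, and same-clone deviations correlated (r = 0.353, 0.236 and 0.325 over 11226 genes), so that the clone was a block in an alternative fit. Named genes were the 10 largest rises and 10 largest falls among called genes with a mean of at least 2 log2 CPM and no overlap, the 5 largest differences from control in each direction, and list members. Some members are counted in the lists but not reported here by name. Members and lists were chosen with earlier results of these data known. Intervals cover these clones only. Alternatives were DESeq2 1.42.0, RLE scaling, no filter, an adjusted p limit of 0.05, all 18 libraries in 1 fit, no X or Y genes, and leaving out libraries or clones.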

Additional observations from a re-analysis of the deposited data

Results flagged for a closer look

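The RA response differed between Neil1 and control EBs, by the test of the difference itself, in 4946 genes, with 2763 differences above 0 and 2183 below 0. Among the named genes the differences above 0 were 6.499 for Pmp22, 6.037 for Hand1, 5.133 for Wnt5a, 4.239 for Runx1 and 4.136 for Bmp2 on the log2 scale. Those below 0 were -6.658 for Pax6, -4.709 for Wt1, -4.683 for Slc1a3, -4.644 for Crmp1 and -4.521 for Sfrp1. The value of Hand1 moves with the RA library of clone #11, at 89.7 CPM against 11.8 and 8.01 CPM, and the part of that library in the difference was not tested further.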

How the results depend on the processing

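Among 16 alternatives, calls in the Neil1 response ranged from 6684 to 8965 around 8377. Calls of the difference from control fell to 2843 without control replicate 1 and 2578 without control replicate 2 and rose to 5600 without control replicate 3. Leaving out 1 library or clone gave 2578 to 5626. DESeq2 called 2 differences from Neil2, against 0. Of 3337 values of named genes in the Neil1 response, 3263 kept their direction and side of the threshold. The exceptions lay in 16 of 209 genes. For genes with changes of sign, none called in the main test, leaving out 1 library or clone gave -0.57 to 0.44 for Neil1, -0.34 to 0.96 for Pax6, -0.6235 to 2.985 for Prl7d1 and -0.14 to 0.85 for Wt1, and the cause was not tested. The difference of Hand1 from control (6.04) missed the threshold in DESeq2. The replicate block (clone) gave 8513 calls in the Neil1 response and 5734 in the difference from control, and it raised the count of trophoblast members from 15 to 23. Among named genes the block changed the calls of 4, Hand1, Cdh5, Klf4 and Prl7d1, and no other. The 3 clones per group limit every comparison, and the changes of parietal endoderm genes move with the RA library of clone #11.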

Other observations

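Blood and macrophage genes were low. Of 20 erythroid genes 8 were tested, 5 raised (3 of the 6 that passed in the EB libraries) and 2 lowered, with a median of 0.80, and all 7 globin genes stayed at or below 0.278 CPM in every library. Only 2 were raised without clone #7 or clone #9, and 1 was lowered without clone #7. Of 20 macrophage genes 11 were tested, 5 raised and 2 lowered, with a median of 0.41, and the defining genes Ptprc and C1qa stayed at or below 0.0762 CPM. Cd68 (1.52 ± 0.28) and Lcp1 (1.69 ± 0.24) rose, and Laptm5 fell by 2.21 ± 0.20 on the log2 scale.

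Of 8 genes of the X-inactivation centre 7 were tested, 1 raised and 2 lowered, with a median of 0.08. Xist went from 14.5, 20.7 and 52.3 to 106, 136 and 391 CPM (2.87 ± 0.69, edgeR adjusted p = 0.012), against means of 1.83 and 2.20 CPM in control EBs, and Tsix fell by 2.11 ± 0.38 on the log2 scale. The pair overlaps on opposite strands and its reads cannot be told apart. After RA chromosome X held 3.27% of counts in clone #11 and at most 4.38% in the others, against 4.57%, 4.52% and 4.39% without RA. In the undifferentiated stem cells it held 4.46%, 4.39% and 0.944%, the last in clone #11. The part of this in the results of clone #11 was not tested.

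Of 5 genes of base excision repair (Neil1, Neil2, Neil3, Tdg and Apex1), 2 were lowered and 0 raised, with a median of -0.42. Apex1, the abasic site endonuclease, went from 14.6, 16.5 and 14.9 to 7.89, 4.73 and 4.37 CPM (-1.42 ± 0.25), and Tdg, thymine DNA glycosylase, from 199, 168 and 186 to 113, 91.9 and 92.6 CPM (-0.88 ± 0.13). Both differences from control were called (-1.28 and -0.78). The 13 listed genes of the mitochondrial genome were at 0 in all libraries and were not measured.

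DESeq2 called 2 genes different between the responses of Neil1 and Neil2 EBs, chosen here after their values were seen. Rps18 had log2 changes of -1.22 and -0.69, and B4galnt2 of 1.46 and -1.49.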
